A study of Araneus ventricosus with 24 samples.

Results

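The ampullate silk gland of the orb-weaving spider *Araneus ventricosus* was compared between spiders exposed to cadmium and lead together and spiders exposed to lead alone, so that the groups differ by the addition of cadmium to lead. The comparison took every gland column labelled with those exposures: 2 distinct libraries with both metals and 2 with lead, 4 of the 20 distinct libraries of the series. The remaining column of each group held the same counts as replicate 1 of that group in all 142219 clusters and was counted once. Exposure lasted 30 days. Both groups carry lead, so lead itself is not tested here. Libraries of cadmium alone (3 gland libraries), of untreated spiders (3 gland libraries) and of the cerebral ganglia enter only as context. The sources used here give no dose, age, sex or number of spiders per library. Nothing says that replicates came from separate spiders, and the p-values then rest on a spread that may be technical.

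Orb-weaving spiders keep several kinds of abdominal silk gland, and each makes mainly its own spidroins, the large repetitive proteins of silk. Major ampullate glands make dragline silk and minor ampullate glands make auxiliary spiral thread. Flagelliform glands make the core fibre of the capture spiral, aggregate glands make the glue that coats it, aciniform glands make prey-wrapping silk, pyriform glands make attachment cement and tubuliform glands make egg-case silk. In bulk RNA, a change in how much of a gland type was collected and a change in RNA per cell cannot be told apart.

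Values are estimated read counts per assembled cluster, a stretch of transcript sequence that may hold a whole gene or a fragment of it. Clusters of one spidroin are therefore not independent of each other, and because spidroins are repetitive and alike, reads can be split between clusters and silk types. Library totals were 16349347 and 18428698 counts with both metals, against 18862835 and 18241431 with lead. Levels are given as CPM, counts scaled to a common library size after TMM scaling. The libraries of one group were no closer to each other than to the other group. Spearman's rho over the tested clusters was 0.772 between the 2 libraries with both metals and 0.828 between the 2 with lead, while replicate 1 with both metals and replicate 2 with lead reached 0.879. The single most abundant cluster with a mitochondrial record of this species held 5.39% and 7.41% of counts with both metals, against 14.2% and 5.36% with lead. Other mitochondrial clusters are not in that share.

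No cluster of 44505 tested passed an adjusted p of 0.05 (0% called) in edgeR's quasi-likelihood test, and the smallest adjusted p was 0.944. At an unadjusted p under 0.05 there were 902 clusters, or 2.03%, of which 410 were higher with both metals. DESeq2 called 161 clusters, 0.537% of those it gave an adjusted p. Of these, 41 were higher and 120 lower, and 74 lay under 1 CPM in all 4 libraries. Since edgeR called none, the clusters are described by their values in each library and by the gap between groups: the log2 ratio of the lowest CPM of the higher group to the highest CPM of the lower group, after adding 0.5 CPM to each. A gap of at least 1, a 2-fold distance between the nearest libraries, was found for 368 clusters higher with both metals (0.827% of those tested) and 299 lower (0.672%). Any gap above 0 was found for 13.2% of clusters higher and 11.5% lower.

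Aciniform spidroin, the protein of prey-wrapping silk, stood lowest relative to lead. Its clusters held 0.0680% and 0.357% of all counts with both metals, against 3.41% and 9.96% with lead. The mean was 0.212% ± 0.204 with both metals and 6.68% ± 4.63 with lead (SD, n = 2 each), 31.5-fold lower with both metals. The groups did not overlap, and an exact two-sided permutation test gave p = 0.333, the smallest that 2 libraries against 2 allow. Counting error is far smaller than this distance: the Wilson 95% interval of replicate 1 with both metals ran from 0.0668% to 0.0693%, and covers counting error only.

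All 15 aciniform clusters in the table were tested, and all 15 lay lower by a gap of at least 1, against 0.672% of all clusters. Their median log2 change, both metals minus lead, was -5.33, against 0.04 over all clusters tested, with a range of -7.36 to -4.04. The most abundant, Cluster-16698.47205, had 453 and 1671 CPM with both metals, against 22469 and 67626 CPM with lead, a log2 change of -5.41 ± 1.04 (SE). Cluster-16698.46954 (aciniform spidroin 1 variant 1) had 28.5 and 293 CPM with both metals, against 9770 and 9568 CPM with lead. A further variant 1 cluster, Cluster-16698.46833, had 299 and 676 CPM with both metals, against 6328 and 25614 CPM with lead. Every aciniform cluster was therefore low in the same pair of libraries, those with both metals. DESeq2 called 7 of the 15 lower, against 120 of the 30001 clusters it gave an adjusted p. In edgeR 13 of the 15 were lower at an unadjusted p under 0.05, against 492 of 44505 clusters.

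Pyriform spidroin, the protein of attachment cement, was also lower in both libraries with both metals. Its share was 0.357% and 0.0496% with both metals, against 1.26% and 0.799% with lead, and the means were 0.204% ± 0.218 and 1.03% ± 0.328 (SD, n = 2 each; exact two-sided permutation p = 0.333). Of the 10 pyriform clusters deposited, 5 were tested. Of these 5, 4 had a log2 change below 0, against 46.4% of all clusters. By a gap of at least 1, 1 was lower, against 0.672% of all clusters. That cluster, Cluster-16698.47058, had 369 and 21.2 CPM with both metals, against 1270 and 1401 CPM with lead. Cluster-16698.46903 had 3703 and 341 CPM with both metals, against 12541 and 6936 CPM with lead. Replicate 2 with both metals was the lowest in each of these.

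Aggregate spidroin, the glue protein, lay on the other side. Its clusters took 1.60% and 7.89% of counts with both metals, against 0.168% and 0.852% with lead. The mean was 4.74% ± 4.45 with both metals and 0.510% ± 0.484 with lead (SD, n = 2 each), 9.30-fold higher with both metals, with no overlap (exact two-sided permutation p = 0.333). Of the 14 aggregate clusters tested 12 had a log2 change above 0, against 51.9% of all clusters, and 8 were higher by a gap of at least 1, against 0.827% of all clusters. Cluster-16698.46986 (aggregate spidroin 1) had 7812 and 18666 CPM with both metals, against 739 and 3220 CPM with lead. Cluster-16698.45697 had 1206 and 6585 CPM with both metals, against 141 and 520 CPM with lead, a log2 change of 3.56 ± 0.93 (SE), and was called by DESeq2 (adjusted p = 0.0337). The 2 clusters below 0 carry names of aggregate silk glue 1 or a record of it; Cluster-16698.41252, for example, had 22.5 and 2.44 CPM with both metals, against 36.7 and 13.7 CPM with lead.

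Flagelliform spidroin, the core of the capture spiral, had the same order. Its share was 0.800% and 1.13% with both metals, against 0.0706% and 0.308% with lead, a 5.11-fold higher mean with both metals (exact two-sided permutation p = 0.333). Of 18 clusters tested 17 had a log2 change above 0, against 51.9% of all clusters. Of the 18, 7 were higher by a gap of at least 1, against 0.827% of all clusters. Cluster-16698.32403 (flagelliform spidroin variant 1) had 899 and 3234 CPM with both metals, against 91.5 and 347 CPM with lead. Cluster-16698.63802 (flagelliform silk protein-1) had 2200 and 989 CPM with both metals, against 66.2 and 546 CPM with lead. The abundant cluster named flagelliform fibroin, Cluster-16698.46827, overlapped between groups at 2330 and 1199 CPM with both metals, against 448 and 1323 CPM with lead. A mesocentin cluster, Cluster-16698.41729, whose nucleotide record is an aggregate spidroin, had 903 and 4628 CPM with both metals, against 87.3 and 375 CPM with lead.

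The ampullate spidroins themselves did not separate the groups. Major ampullate spidroins, the dragline proteins, held 14.5% and 9.57% of counts with both metals, against 15.0% and 11.2% with lead (exact two-sided permutation p = 0.667). The 75 clusters tested had a median log2 change of -0.11, 35 above 0 and 40 below, and none had a gap of at least 1 either way. That median was 0.32 without replicate 2 with both metals and 0.17 without lead replicate 1. Cluster-16698.54848 (major ampullate spidroin 1) had 24197 and 1504 CPM with both metals, against 13272 and 10308 CPM with lead, so the 2 libraries with both metals were the extremes. Cluster-16698.45917 (dragline silk fibroin SpA) had 9948 and 4486 CPM with both metals, against 9448 and 7979 CPM with lead.

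Minor ampullate spidroins made up 0.884% and 1.68% with both metals, against 0.0261% and 1.11% with lead (exact two-sided permutation p = 0.667). Lead replicate 1 alone was low. Without it the log2 ratio of mean shares was 0.20, against 1.17 with all 4 libraries. The same library was low in the 7 clusters named major ampullate gland dragline silk protein-2, whose summed level was 7167 and 5960 CPM with both metals, against 85.5 and 6399 CPM with lead. Of the clusters named major ampullate gland peroxidase, an enzyme named for this gland, 9 were tested, 4 with a log2 change above 0 and 5 below; their median was -0.27, and 0.87 without lead replicate 1. Tubuliform spidroin was near 0 in every library, at most 0.182 CPM among these 4. Other silk proteins held 2.49% and 2.27% with both metals, against 0.495% and 1.17% with lead. Their shares of the deposited FPKM values overlapped, at 2.07% and 1.57% with both metals, against 3.05% and 1.37% with lead. Together the silk types held 20.7% and 22.9% of counts with both metals, against 20.4% and 25.4% with lead. The total silk share thus overlapped between groups, while the aciniform, pyriform, aggregate, flagelliform and other silk protein shares of counts did not.

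**Figure D1:**
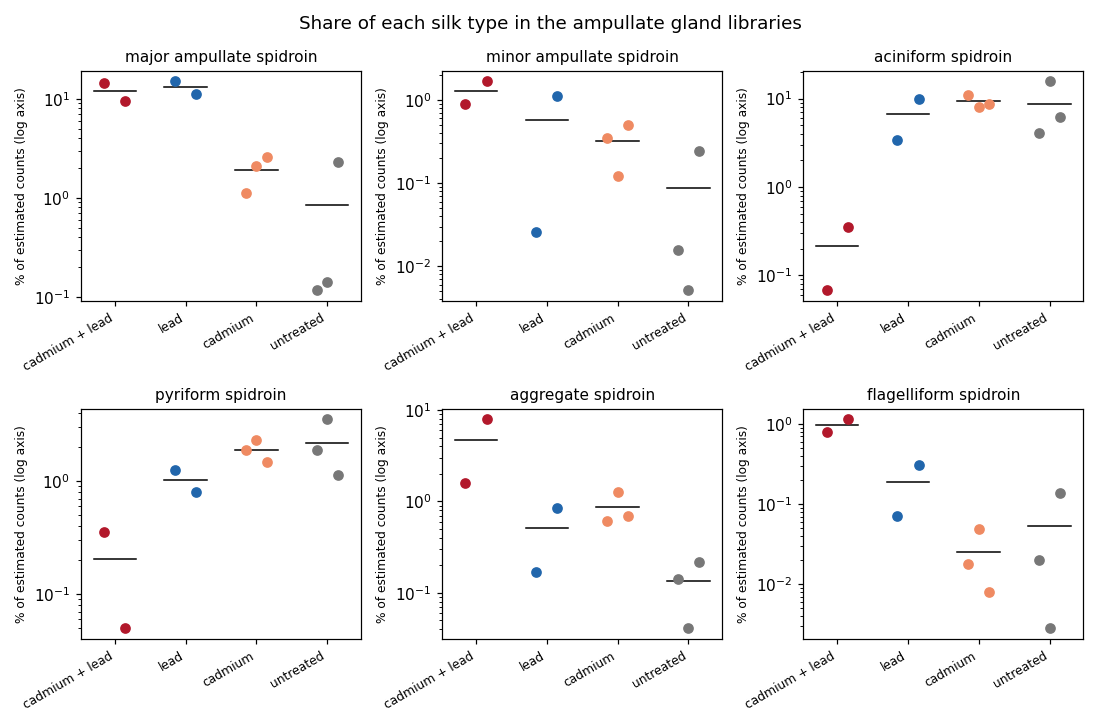
Share of all estimated counts (%, log axis) held by 6 silk types in each ampullate gland library. Points are libraries (cadmium + lead and lead 2 each, cadmium and untreated 3 each) and bars are group means; aciniform and pyriform shares lie lower and aggregate and flagelliform shares higher with cadmium + lead than with lead, while major ampullate shares overlap.

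The same silk types in the other gland groups give these values a scale. Aciniform spidroin held 8.13% to 11.1% of counts in cadmium glands and 4.05% to 15.7% in untreated glands, so both libraries with both metals lay below all 8 other gland libraries. Aggregate spidroin held 0.617% to 1.28% in cadmium glands and 0.0407% to 0.218% in untreated glands, all below both libraries with both metals. Flagelliform spidroin held 0.00809% to 0.0490% in cadmium glands and 0.00282% to 0.139% in untreated glands, again below both libraries with both metals. Major ampullate spidroins held 1.11% to 2.57% in cadmium glands and 0.117% to 2.29% in untreated glands. All 4 libraries with lead, alone or with cadmium, were above that range.

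Among described clusters, the 12 widest gaps higher with both metals included 6 clusters of fatty acid enzymes and membrane transporters. Organic cation transporter 1, which in mammals takes up organic cations, headed them: Cluster-16698.60435 had 38.0 and 16.1 CPM with both metals, against 0.255 and 1.52 CPM with lead. Carnitine O-palmitoyltransferase 1 admits long-chain fatty acids to mitochondria for oxidation. Its liver-isoform cluster, Cluster-16698.54611, had 35.6 and 35.4 CPM with both metals, against 0 and 4.31 CPM with lead. A muscle-isoform cluster, Cluster-16698.69348, had 6.72 and 6.80 CPM with both metals, against 0 and 0.607 CPM with lead. In each of these the 2 libraries with lead lay far below both others. A carcinine transporter cluster, Cluster-16698.68048, had 32.6 and 10.6 CPM with both metals, against 0.574 and 1.76 CPM with lead.

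Stearoyl-CoA desaturase 5, which places a double bond in saturated fatty acids, gave 2 of these 12. Cluster-16698.49435 had 37.1 and 39.5 CPM with both metals, against 5.74 and 4.55 CPM with lead, a log2 change of 2.89 ± 0.90 (SE). Cluster-16698.55832 had 24.8 and 20.2 CPM with both metals, against 1.85 and 2.43 CPM with lead. Vitellogenin, the precursor of egg yolk, also gave 2: Cluster-16698.72343 had 16.1 and 6.67 CPM with both metals, against 0.957 and 0.243 CPM with lead. The other vitellogenin-like cluster, Cluster-16698.65830, had 18.9 and 5.71 CPM with both metals, against 0.638 and 0.850 CPM with lead. It ran from 0.987 to 22.1 CPM in cadmium and 5.29 to 9.64 CPM in untreated glands, so lead alone was the lowest group. Cluster-16698.72343 ran from 0.312 to 6.11 CPM in cadmium and 0.725 to 1.87 CPM in untreated glands. A pregnancy zone protein-like cluster, of the alpha-2-macroglobulin family of protease inhibitors, had 41.5 and 50.0 CPM with both metals, against 7.40 and 8.80 CPM with lead (Cluster-16698.43432). The remaining 3 were an UNC93-like protein and 2 flagelliform spidroin clusters. Of the 12 clusters DESeq2 called 1, the flagelliform spidroin variant 1 Cluster-16698.62529, at 23.4 and 142 CPM with both metals, against 0.766 and 3.95 CPM with lead.

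The 12 widest gaps on the lower side held 6 aciniform clusters and 6 others. Citrate synthase opens the citric acid cycle. Cluster-16698.65886, named putative citrate synthase 1, had 0.305 and 0.698 CPM with both metals, against 90.0 and 263 CPM with lead, a log2 change of -8.41 ± 1.49 (SE). It had medians of 1.58 CPM in cadmium and 2.11 CPM in untreated glands, so lead alone was the group that stood apart, and the other putative citrate synthase 1 cluster, Cluster-16698.47433, had 80.2 and 75.5 CPM with both metals, against 81.2 and 73.5 CPM with lead. A putative methyltransferase, Cluster-16698.22189, had 0 and 0.698 CPM with both metals, against 56.5 and 251 CPM with lead, with medians of 0.137 CPM in cadmium and 0.423 CPM in untreated glands.

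Acetylcholinesterase splits the transmitter acetylcholine, and Cluster-16698.48435, named AChE2 variant 1, was lower with both metals than in any other gland library. It had 54.0 and 24.9 CPM with both metals, against 2048 and 1408 CPM with lead, and medians of 760 CPM in cadmium and 1109 CPM in untreated glands. Its log2 change was -5.45 ± 1.13 (SE). Optomotor-blind, a T-box transcription factor known from flies, had 1.07 and 0 CPM with both metals, against 20.6 and 19.9 CPM with lead (Cluster-16698.51608), and medians of 64.6 CPM in cadmium and 26.2 CPM in untreated glands. A probable G-protein coupled receptor 83 cluster, Cluster-16698.45659, was at 0 CPM in both libraries with both metals, against 5.11 and 23.6 CPM with lead. The last was a cluster named nose resistant to fluoxetine protein 6, Cluster-16698.65289, with 0.229 and 0.0436 CPM with both metals, against 7.28 and 9.17 CPM with lead. It had medians of 0.481 CPM in cadmium and 0 CPM in untreated glands, so lead alone was the group that stood apart. DESeq2 called 8 of these 12, but they were picked for their gaps in the same counts, so the calls give no separate support.

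**Figure D2:**
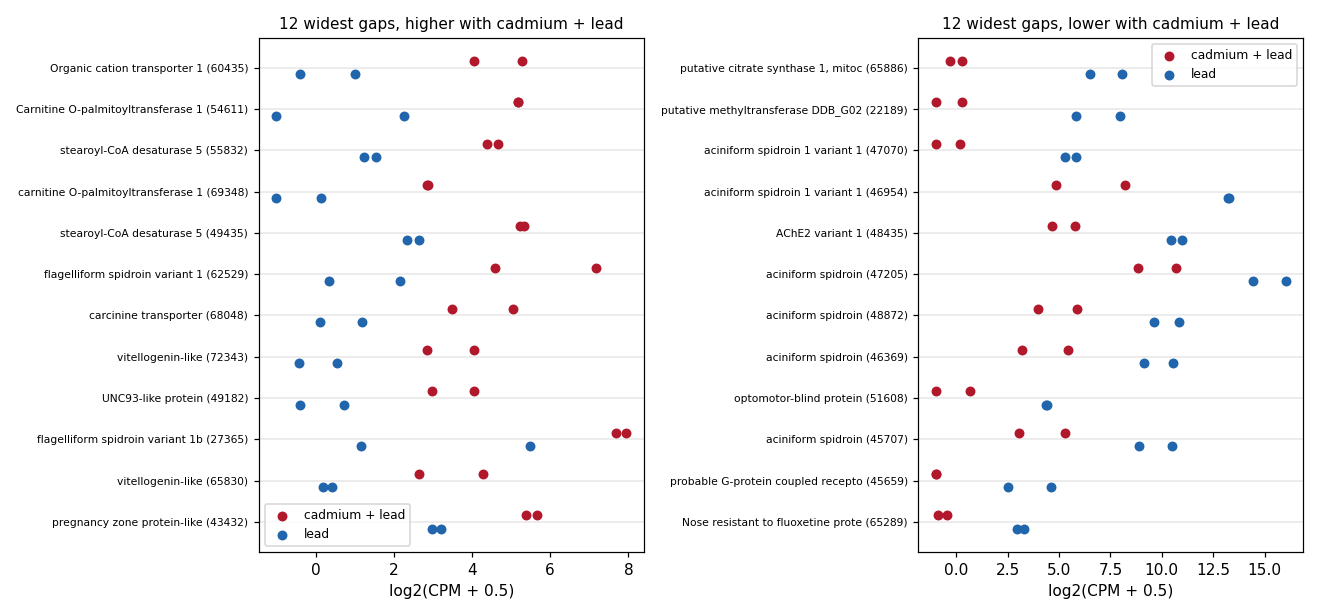
Level, as log2(CPM + 0.5), of the 12 described clusters with the widest gap higher (left panel) and the 12 lower (right panel) with cadmium + lead relative to lead. Each point is a library and the number in brackets ends the cluster's ID; the clusters were picked for these gaps, and the left panel is led by organic cation transporter 1 and the right by putative citrate synthase 1.

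Several families could be followed through all their clusters. They were picked after the values had been seen, so their counts carry no test. Of 31 clusters of the alpha-2-macroglobulin family (alpha-2-macroglobulin, pregnancy zone protein and CD109), 27 had a log2 change above 0, against 51.9% of all clusters. Their median was 1.55. Of the 31, 11 were higher by a gap of at least 1 and 1 was lower, against 0.827% and 0.672% of all clusters. The summed level of the 31 was 3926 and 4212 CPM with both metals, against 1369 and 1637 CPM with lead. It was 583 to 822 CPM in cadmium glands and 313 to 521 CPM in untreated glands, so no 2 of the 4 groups overlapped. Cluster-16698.46671 (alpha-2-macroglobulin 2), for example, had 501 and 792 CPM with both metals, against 64.3 and 181 CPM with lead.

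Of 24 stearoyl-CoA desaturase clusters, 21 had a log2 change above 0, against 51.9% of all clusters, with a median of 2.56. Of the 24, 8 were higher by a gap of at least 1, against 0.827% of all clusters. The sum of the 24 was 396 and 268 CPM with both metals, against 176 and 144 CPM with lead. In cadmium glands it ran from 182 to 629 CPM, a range that holds both sums with both metals and lies above both with lead. In untreated glands it ran from 69.8 to 327 CPM, a range that holds both sums with lead and that of replicate 2 with both metals. The 9 carnitine O-palmitoyltransferase clusters together had 506 and 444 CPM with both metals, against 398 and 397 CPM with lead, a closer pair of ranges than those of the 2 clusters named above. Both groups with lead lay above cadmium glands at 107 to 193 CPM and untreated glands at 50.8 to 124 CPM.

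**Figure D3:**
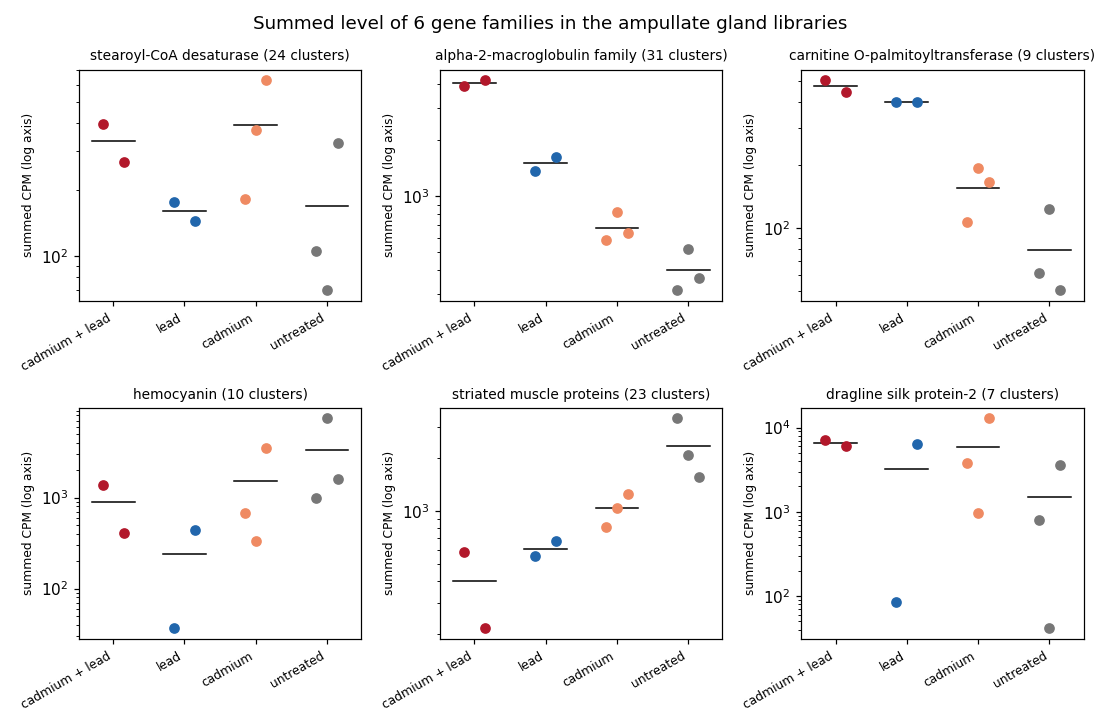
Summed level (CPM, log axis) of all tested clusters of 6 families in each ampullate gland library; points are libraries and bars are group means. The alpha-2-macroglobulin family separates all 4 groups and is highest with cadmium + lead, while hemocyanin and dragline silk protein-2 are low in lead replicate 1.

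Lipid metabolism was the largest of the lists taken from gene descriptions. Of 309 clusters tested, 193 had a log2 change above 0 and 112 below, with a median of 0.20, against 0.04 over all clusters. Without replicate 1 with both metals the median was -0.32. Of the 309, 19 were higher by a gap of at least 1 and 3 were lower, against 0.827% and 0.672% of all clusters. Perilipin-5, a lipid droplet protein, had 699 and 138 CPM with both metals, against 472 and 426 CPM with lead (Cluster-16698.45947). Patatin-like phospholipase domain-containing protein 2, which releases fatty acids from stored fat, had 82.0 and 35.8 CPM with both metals, against 162 and 112 CPM with lead (Cluster-16698.47834).

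Markers of tissues that can adhere to a dissected gland differed unevenly. Of 62 muscle clusters 41 had a log2 change below 0, against 46.4% of all clusters, with a median of -0.35. Of the 62, 6 were lower by a gap of at least 1 and none higher, against 0.672% and 0.827% of all clusters. Among the 62 were 23 clusters of striated muscle proteins, a subset chosen after the values were seen. They covered muscle myosin heavy chain, regulatory light chain 2, paramyosin, tropomyosin and troponins, with 17 below 0 and a median of -2.05. Of the 23, 14 lay lower without overlap, against 11.5% of all clusters. In edgeR 9 were lower at an unadjusted p under 0.05, against 492 of 44505 clusters. DESeq2 called 3 lower, against 120 of the 30001 clusters it gave an adjusted p. The whole muscle list had the same 9 and 3, so its other clusters held none of these. As the subset was picked from these values, its counts carry no test. The 23 clusters summed to 588 and 215 CPM with both metals, against 551 and 672 CPM with lead. The most abundant of them, Tropomyosin (Cluster-16698.48980), had 458 and 169 CPM with both metals, against 265 and 246 CPM with lead. Muscle myosin heavy chain, the motor protein of muscle, had 6.26 and 3.75 CPM with both metals, against 67.0 and 45.1 CPM with lead (Cluster-16698.49961). The whole muscle list summed to 1995 and 1329 CPM with both metals, against 1890 and 2027 CPM with lead, and to 2643 to 5070 CPM in untreated glands. Hemocyanin, the oxygen carrier of the hemolymph, had all 10 clusters above 0, but lead replicate 1 was the outlying library: the sum was 1359 and 410 CPM with both metals, against 36.6 and 438 CPM with lead. Digestive, venom and cuticle lists each had their lowest sum in replicate 2 with both metals, at 812, 449 and 275 CPM. In replicate 1 with both metals they had 3466, 4140 and 1333 CPM. All tested clusters together had 791020 CPM in replicate 2 and 1243630 CPM in replicate 1 with both metals. These totals follow from the TMM factors alone (1.26 and 0.804) and are not a measured level. The part of these tissues in the results above was not tested.

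Genes that handle metals gave little separation. Of 61 clusters for metal binding and transport, 22 had a log2 change above 0 and 39 below, with a median of -0.14. None was higher by a gap of at least 1 and 2 were lower, against 0.827% and 0.672% of all clusters. The median was 0.20 without replicate 2 with both metals. Soma ferritin, an iron store, had 2579 and 705 CPM with both metals, against 1703 and 1730 CPM with lead (Cluster-16698.46979). Metallothionein, which binds cadmium and zinc through its cysteines, had 10.2 and 5.67 CPM with both metals, against 10.6 and 5.10 CPM with lead (Cluster-16698.33334). The zinc transporter ZIP10-like Cluster-16698.61700 had 3.59 and 1.79 CPM with both metals, against 9.51 and 8.50 CPM with lead. The ZIP3-like Cluster-16698.37395 had 44.6 and 28.0 CPM with both metals, against 16.5 and 19.1 CPM with lead. Each of these 2 transporters was named as the widest gap of the list on its side, so their opposite directions follow from that choice. Over the list, 3 of 61 clusters were higher and 5 lower without overlap, against 13.2% and 11.5% of all clusters.

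Stress lists lay near the centre, and each of their medians took the other sign, or left 0, without at least 1 library. Antioxidant enzymes had 18 clusters above 0 and 18 below of 37. Heat shock proteins had 26 above and 19 below of 45, cytochrome P450 enzymes 101 above and 104 below of 205, and glutathione conjugation 49 above and 45 below of 94. Heat shock 70 kDa protein cognate 4, a chaperone, had 2805 and 1692 CPM with both metals, against 2139 and 1853 CPM with lead (Cluster-16698.46984). Glutathione S-transferase Mu 1 Cluster-16698.44489, a conjugating enzyme, was named as the widest gap of its list on the higher side. It had 7.26 and 6.71 CPM with both metals, against 2.23 and 3.95 CPM with lead.

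Most protein synthesis and energy lists had their lowest sum in replicate 2 with both metals. TMM scaling alone also set that library's total over all tested clusters lowest of the compared libraries, at 791020 CPM. Of 96 cytosolic ribosomal protein clusters 77 had a log2 change below 0, with a median of -0.20, but the sum was 42490 and 10443 CPM with both metals, against 24404 and 37634 CPM with lead, so the groups overlapped. Without replicate 2 with both metals the median was 0.50, and without lead replicate 2 it was 0.29. Oxidative phosphorylation had 69 of 86 clusters below 0 and a median of -0.24, and its sum was 17126 and 7550 CPM with both metals, against 22967 and 15952 CPM with lead. That median was 0.31 without replicate 2 with both metals and 0.05 without lead replicate 2. Aminoacyl-tRNA synthetases, which charge tRNAs, had 32 of 47 below 0. Sec61 subunit alpha, the channel through which secreted proteins enter the endoplasmic reticulum, had 3962 and 1754 CPM with both metals, against 4953 and 4205 CPM with lead (Cluster-16698.47022). Amino acid suppliers had 41 clusters above 0 and 39 below of 80. The most abundant, phosphoserine aminotransferase (Cluster-16698.47679), had 1918 and 842 CPM with both metals, against 1784 and 2350 CPM with lead. The cationic amino acid transporter 4-like Cluster-16698.60700 was named as the widest gap of the list on the higher side. It had 16.4 and 9.07 CPM with both metals, against 0.319 and 3.16 CPM with lead.

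**Figure D4:**
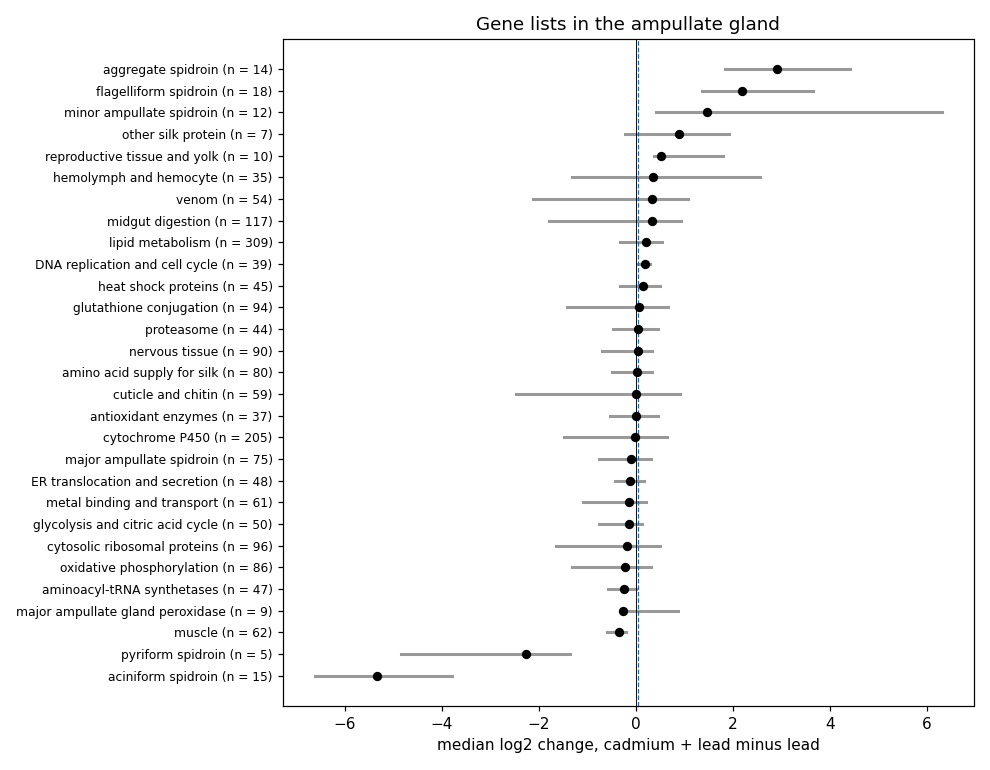
Median log2 change (cadmium + lead minus lead) of the gene lists with at least 3 tested clusters. Points use all 4 libraries, grey bars run from the lowest to the highest median when 1 of the 4 is left out, and the dashed line is the median of all clusters; the medians of aciniform and pyriform spidroins stay below 0 and those of aggregate, flagelliform and minor ampullate spidroins above 0.

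Adding cadmium could also be compared without lead, as cadmium against untreated glands, which share no library with the comparison above. The difference between the 2 cadmium steps was called for 0 of 44505 clusters (0% called) in edgeR, with 798 at an unadjusted p under 0.05, while DESeq2 called 74. The aciniform clusters had a median log2 change of -5.33 with lead and -0.12 without, and a median difference of -4.98. The aggregate clusters had medians of 2.90 with lead and 3.64 without, and the alpha-2-macroglobulin family 1.55 and 1.77. Of the stearoyl-CoA desaturase clusters 21 of 24 were above 0 with lead and 23 of 24 without. Hemocyanin clusters were above 0 in 10 of 10 with lead and below 0 in 10 of 10 without. Cluster-16698.48435 (AChE2 variant 1) had a log2 change of -5.45 ± 1.13 (SE) with lead and -0.0030 ± 0.76 (SE) without.

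In the cerebral ganglia, set up with the same exposures, silk clusters were scarce: all silk types held 0.994% and 0.680% of counts with both metals, against 0.232% and 0.104% with lead. Aciniform clusters there had a median log2 change of 3.53 and 13 of 15 above 0, at shares of 0.0340% and 0.0854% with both metals, against 0.00859% and 0.000614% with lead. The tissue difference of the change was called for 1 of 51904 clusters (0.00193% called) in edgeR and for 260 in DESeq2. The 1 cluster was Cluster-16698.79157, a hypothetical protein, with 0 and 0 counts with both metals, against 161 and 65 counts with lead in the gland, and 14 and 46 counts with both metals, against 13 and 10 counts with lead in the ganglia. In this 20-library edgeR fit the gland comparison by itself also called that cluster, as lower (1 of 51904, 0.00193% called; adjusted p = 0.0244), which the 10-library fit did not.

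Some abundant separated clusters had no usable description. Cluster-16698.47135 had 9.32 and 6.54 CPM with both metals, against 215 and 1149 CPM with lead, and Cluster-16698.46659 had 17.8 and 6.54 CPM, against 235 and 1332 CPM with lead. Cluster-16698.46814 had 244 and 77.1 CPM with both metals, against 4534 and 2626 CPM with lead. On the higher side Cluster-16698.29854 had 702 and 890 CPM with both metals, against 2.42 and 116 CPM with lead. These were chosen for their gap among clusters with at least 200 CPM in each library of the higher group.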

How the data were processed

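Per the labels, total RNA of glands and ganglia came from an RNeasy Mini Plus kit, libraries from a SMARTER mRNA-Seq kit, and reads from a NovaSeq instrument. The authors deposited estimated counts and FPKM values per assembled cluster. The FPKM unit was read from the values, and for the assembler, aligner, counting tool and build the sources used here name nothing. Estimated counts were rounded. The 4 columns equal to another of their group were left out, which leaves 10 distinct gland libraries.

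edgeR 4.0.16 in R 4.3.3 (filterByExpr, TMM, robust glmQLFit, glmQLFTest, Benjamini-Hochberg over all clusters, threshold 0.05) was fitted on the 10 gland libraries, and on all 20 libraries for the tissue difference; the spread is shared between groups (common biological coefficient of variation 0.902). DESeq2 1.42.0 was an alternative. Silk shares were taken from estimated counts, with FPKM shares as an alternative. Steps were tested on simulated data. Silk shares were compared by exact permutation.

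Descriptions come from hits to spiders and their relatives in the deposited table, 18274 clusters in all. A silk type came from the protein hit, or from a nucleotide hit whose score per base reached 0.15. The comparison, members and gene lists were chosen with earlier results of these data known. The list patterns, the description rules and the gap minimum of 1 were also adjusted after values per library were seen. Named clusters are the 12 widest gaps each way with a description and at least 5 CPM in every library of the higher group, the 3 most abundant of each silk type, and for other lists the 2 most abundant and the widest gap each way, of which a part is printed. The mesocentin, metallothionein, Cluster-16698.41252, family and undescribed clusters were chosen after their values were seen. No sequence was at hand to print.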

Additional observations from a re-analysis of the deposited data

Results flagged for a closer look

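Cluster-16698.79157, a hypothetical protein, was flagged because its change from lead to both metals differed between gland and ganglia in edgeR's quasi-likelihood test (adjusted p = 0.0321). It had 0 and 0 counts with both metals, against 161 and 65 counts with lead in the gland, and 14 and 46 counts with both metals, against 13 and 10 counts with lead in the ganglia. In the other gland libraries it had 30 to 78 counts with cadmium and 11 to 34 counts untreated. Under a fit with a replicate block no cluster was called. Nor was any in 5 of the 8 fits that left out 1 library: gland replicate 2 with both metals, gland replicate 1 with lead, ganglia replicate 2 with both metals, and ganglia replicates 1 and 2 with lead.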

How the results depend on the processing

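For clusters called between both metals and lead in the gland, RLE size factors, TMMwsp, a minimum of 1 CPM in 2 libraries, the compared groups alone, all deposited columns and the replicate block each left 0. No filter gave 113, DESeq2 161 and, added after seeing the data, the fit on all 20 libraries 1. Without 1 library at a time the count ran from 0 to 9, with 9 without replicate 1 with both metals and 6 without lead replicate 1, where the lone library is assumed to vary like the other groups. The cadmium step with lead minus that without gave 59 with no filter, 74 in DESeq2, 0 with the replicate block and 0 to 6 without 1 library. The tissue difference, 1 in the fit described, gave 95 with no filter, 260 in DESeq2, 56 with all deposited columns, 0 with the replicate block and 0 to 70 without 1 library, the 70 without gland replicate 1 with both metals. The cause was not tested. Replicate numbers share only a number: deviations of same-numbered libraries with both metals and lead correlated at -0.0502 in the gland and 0.151 in the ganglia, with 2 pairs in each.

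Gap counts, under alternatives added after seeing the data, were 226 and 151 higher and 175 and 115 lower with 1 and 2 CPM added. Without 1 library, log2 ratios of mean shares ran from -6.62 to -4.01 for aciniform, -4.38 to -1.53 for pyriform, 1.65 to 4.82 for aggregate, 1.65 to 3.78 for flagelliform, 0.20 to 5.62 for minor ampullate, -0.45 to 0.14 for major ampullate and 1.02 to 2.27 for other silk proteins, the last at -0.28 by FPKM. Of 29 list medians 9 kept their sign without each library, among them aciniform, pyriform, aggregate, flagelliform and muscle, and 20 did not. With 2 libraries a group, a missed threshold does not show that values were alike.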
